A study of Mus musculus with 3 samples.

Results

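A pair of myeloid cell populations were compared within the CD45+ leukocytes of the muscle layer of the mouse stomach. They were macrophages with Ccr2 and complement C1q RNA, and monocyte-like cells with almost no C1q RNA. Summed over cells, both held Ccr2 RNA. A cell was taken as a barcode with at least 2000 unique molecular identifiers (UMIs, each standing for 1 captured RNA molecule) and at most 15% mitochondrial UMIs. Ccr2 macrophages had at least 10 UMIs of C1qa, C1qb and C1qc together, at least 2 of Ccr2, at most 1 of Cx3cr1 and none of Lyve1 or Timd4. Monocyte-like cells had at least 3 UMIs of Chil3, F10 and Ifitm6 together, at least 1 of Fn1, at most 5 of the C1q genes, at most 20 of S100a8 and S100a9 together and none of Xcr1 or Clec9a. These gates, selected on the UMI counts of the genes just listed, took 189 Ccr2 macrophages and 47 monocyte-like cells, 236 in all, out of 5735 barcodes, of which 2675 passed the depth and mitochondrial limits.

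All 3 libraries, replicates 1, 2 and 3, belong to 1 group, named NonDiabetic, of female C57bl/6 mice. No genotype, treatment, time or age is given for them in the labels used here, no groups of animals were compared, and each comparison is between cells of the same library. Whether each library stands for a different animal is not stated in the labels, and part of the spread between libraries may be technical. In the comparison with monocyte-like cells the edgeR p-values rest on a spread pooled over genes and not on that of each gene. The cells were released with collagenase type II over 2 hours at 37°C and sorted by flow cytometry before droplet capture.

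Classical monocytes are made in the bone marrow, leave it through the chemokine receptor CCR2, and circulate with high Ly6C. In tissues they can lose monocyte genes and gain macrophage genes such as those of complement C1q, scavenger receptors and the transcription factor c-MAF. In the gut wall, macrophages that keep Ccr2 are usually regarded as recent descendants of monocytes, while macrophages with Lyve1 or Timd4 are regarded as longer-lived residents. Muscularis macrophages, those of the muscle layer, are known for contact with enteric neurons, pacemaker cells and smooth muscle.

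Ccr2 macrophages numbered 33, 85 and 71 in replicates 1, 2 and 3, which was 6.63%, 7.69% and 6.62% of the kept barcodes. Monocyte-like cells numbered 15, 28 and 4, or 3.01%, 2.53% and 0.373%. Replicate 3 thus held too few monocyte-like cells for its sum to stand as a replicate, and the comparison of the gates was tested on replicates 1 and 2, which had at least 10 cells in each gate. Values of replicate 3 are given beside them, and where they were added to the test this is said. The cells of the gates were deep, with medians of 9083, 13277 and 9638 UMIs in Ccr2 macrophages and 13591, 15207.5 and 11084 in monocyte-like cells. Summed over cells, Ccr2 macrophages gave 400018, 1217416 and 737904 UMIs and monocyte-like cells 233746, 459199 and 42011. Replicates 2 and 3 shared 33 barcodes and replicates 1 and 3 shared 1. Of the gated cells, 4 Ccr2 macrophages and 2 monocyte-like cells had such a barcode.

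The genes of the gates chose the cells, so they describe the groups and are not findings. Levels are given as CPM, the UMIs of a gene per 1000000 UMIs of its gate in 1 library. Both sides carried Ccr2 at similar levels. Ccr2 macrophages held 1437, 600.5 and 755 CPM of Ccr2 in replicates 1, 2 and 3, and monocyte-like cells held 1429, 542 and 666. The monocyte gate set no limit on Ccr2, and the lowest count in a monocyte-like cell was 0 UMIs in replicates 1 and 2. Lymphoid cells of the same libraries held 620, 410 and 433 CPM of Ccr2. Fn1, the fibronectin gene and part of the monocyte gate only, lay at 1637, 1049.8 and 615 CPM in Ccr2 macrophages, against 1827, 1988 and 2666 CPM in monocyte-like cells. Near the limits, 27 Ccr2 macrophages had exactly 2 UMIs of Ccr2 and 36 barcodes missed that gate with exactly 1. At the C1q limit 14 Ccr2 macrophages had 10 to 14 UMIs, and 9 barcodes missed it with 6 to 9. Only 4 monocyte-like cells had exactly 3 UMIs of Chil3, F10 and Ifitm6, and 16 barcodes missed that gate with exactly 2. A further 43 barcodes met every monocyte limit except that they held 10 or more C1q UMIs. In the Ccr2 macrophage gate, 30 cells met the Chil3, F10, Ifitm6 and Fn1 limits of the monocyte gate. Their overlap with the 43 was not counted.

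The labels of the gates were checked on markers that the gates did not use, after each cell had been thinned to 2000 UMIs. Of 7 macrophage markers (Adgre1, Csf1r, Mertk, Fcgr1, Cd68, Ms4a7 and Mrc1), Ccr2 macrophages held a median of 2 and monocyte-like cells a median of 1. At least 3 of them were found in 48.1% of Ccr2 macrophages and 17.0% of monocyte-like cells, and in 0.567% of 529 lymphoid cells, which should lack them. In the Cx3cr1 and Lyve1 macrophages defined below the share was 80.3% and 84.9%. The macrophage label thus held in part for Ccr2 macrophages. Of 8 monocyte markers (Ly6c2, Plac8, Vcan, Hp, Gda, Mgst1, Ms4a4c and Clec4e), at least 2 were found in 44.7% of monocyte-like cells and 8.47% of Ccr2 macrophages. In lymphoid cells that share was 2.65%. Lymphoid cells were picked for few C1q UMIs and no UMI of Chil3, F10 or Ifitm6, which may lower both of their shares. The monocyte label too held only in part: 10 of the 47 monocyte-like cells showed none of the 8 markers at this depth. Ly6c2, the classical monocyte antigen, had a UMI in 27.7% of monocyte-like cells at full depth, against 3.17% of Ccr2 macrophages and 3.02% of lymphoid cells. H2-Ab1, an MHC class II gene that circulating classical monocytes carry little of, had a UMI in 91.5% of monocyte-like cells, against 35.3% of lymphoid cells.

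Other cells that the gates could hold were looked for by their markers. Cd3e, Cd3d and Cd3g of T cells and Cd79a of B cells had no UMI in either gate. The 8 B and plasma cell markers summed to 99.996, 113 and 106 CPM in Ccr2 macrophages and 47.1, 50.1 and 47.6 CPM in monocyte-like cells. Most of these UMIs were of Ighm, the heavy chain of IgM, which was called higher in Ccr2 macrophages (log2 fold change 1.15, SE 0.36, edgeR adjusted p = 0.032) and was called in 1 of 12 alternatives; the part of B cell RNA in the results was not tested. The summed level of 9 markers of type 2 dendritic cells was 1075, 1153 and 905 CPM in Ccr2 macrophages and 1964, 1348 and 881 CPM in monocyte-like cells. Cd209a, a lectin of these dendritic cells, stood at 192, 148 and 81.3 CPM in Ccr2 macrophages and at 582, 294 and 0 CPM in monocyte-like cells. At least 2 UMIs over Flt3, Zbtb46, Cd209a and Ccr7 were present in 19 of the 47 monocyte-like cells and 30 of the 189 Ccr2 macrophages, and without these cells 28 genes were called higher and 27 lower in the comparison below. At least 2 UMIs of lymphoid or mast cell genes were present in 123 of the 189 Ccr2 macrophages and 28 of the 47 monocyte-like cells; without them only 9 and 4 cells were left in replicate 1, and 11 genes were called higher and 2 lower. The 10 neutrophil markers summed to at most 94.1 CPM in either gate, with Ly6g, Ngp, Camp and Lcn2 at 0 in both. Fibroblast markers summed to 330.0, 131 and 159.9 CPM in Ccr2 macrophages and 227, 128 and 71.4 CPM in monocyte-like cells, and their part in the results was not tested.

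Of 5061 genes outside the gates, 287 (5.67%) differed between Ccr2 macrophages and monocyte-like cells at an adjusted p under 0.05 in the paired quasi-likelihood test of edgeR. Ccr2 macrophages were higher in 181 (3.58%) and lower in 106 (2.09%). They had more of the C-C chemokines Ccl12, Ccl24, Ccl7 and Ccl2, of the macrophage genes Pf4, Ms4a7 and Apoe, and of the regulator Maf. They had less of Slpi, Plac8, Hp, Ly6c2 and Thbs1, genes of circulating monocytes and granulocytes, and of the prostaglandin synthase Ptgs2. The median log2 fold change over all genes tested was -0.01, and 279 of the 287 had the same sign in both libraries, the libraries that gave the calls. In this fit edgeR replaced each gene's own spread between libraries by a spread pooled over genes. Its p-values and SEs here therefore do not show how far the 2 libraries differed for a gene. Other fits on the same 2 libraries pooled the spread only in part. One was that with at most 8% mitochondrial UMIs, which called 50 genes higher and 26 lower. DESeq2, on the sums of the main fit, called 39 of the 287 too. Adding replicate 3 left 108 called, and all 276 that could be tested again kept their sign. That fit still held replicates 1 and 2 and added only 4 monocyte-like cells. The kept signs are therefore no independent check. Because the gates and the tested genes were read in the same cells, p-values of genes that go together with a gate gene are too small.

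**Figure D1:**
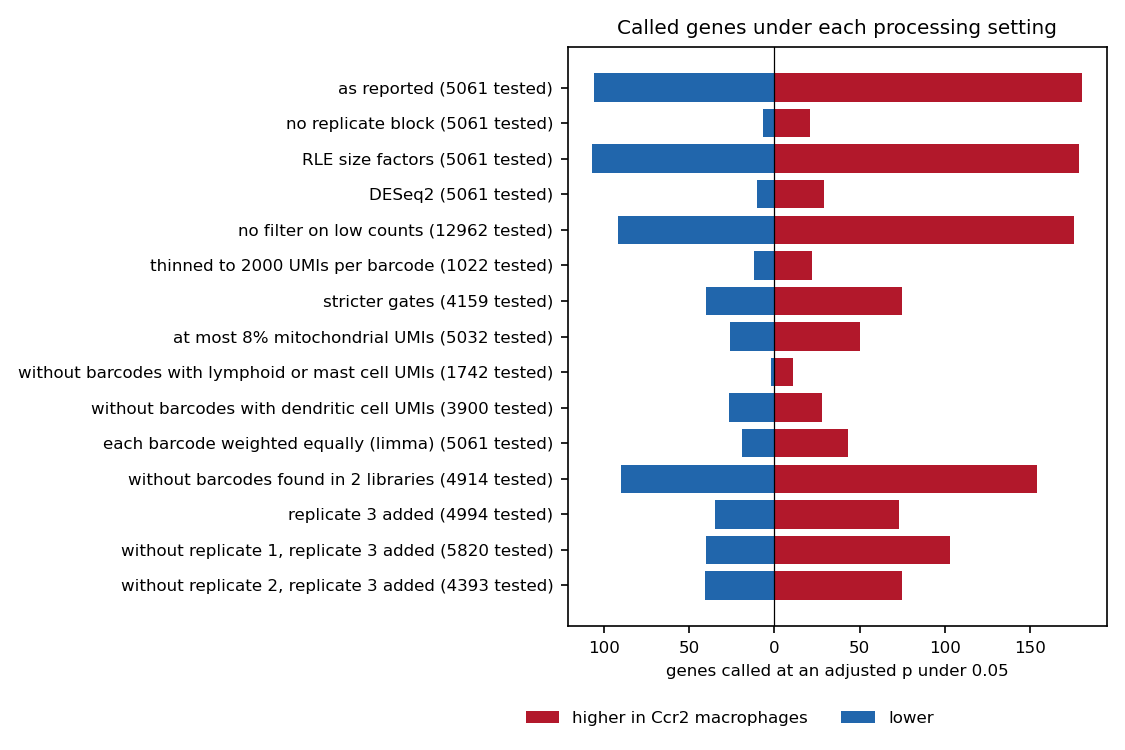
Genes called higher (red, to the right) or lower (blue, to the left) in Ccr2 macrophages than in monocyte-like cells, as bars of gene counts, under the reported settings (181 and 106) and each alternative, with the number of genes tested in brackets. The bars are shortest without barcodes with lymphoid or mast cell UMIs, at 11 and 2.

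The monocyte side was marked first by genes that were nearly silent in Ccr2 macrophages. Of 20 tested classical monocyte genes, 13 were lower in Ccr2 macrophages and none was higher, with a median log2 fold change of -1.45 against -0.01 over all genes tested. DESeq2 called 4 of the 13 and the test with replicate 3 added called 10. Plac8, a small cysteine-rich protein abundant in monocytes and granulocytes, was at 856, 279 and 952 CPM in monocyte-like cells of replicates 1, 2 and 3 and at 0, 10.7 and 10.8 CPM in Ccr2 macrophages. Every monocyte-like sum was above every Ccr2 macrophage sum, and in replicates 1 and 2 the log2 fold change was -5.71 (SE 0.34, edgeR adjusted p = 8.24e-59). Plac8 was lower in all 14 alternatives and was called in 13; DESeq2, with an adjusted p of 0.133, was the exception. Hp, the haemoglobin-binding plasma protein haptoglobin that monocytes also make, was at 265, 87.1 and 190.4 CPM in monocyte-like cells and 2.50, 2.46 and 21.7 CPM in Ccr2 macrophages. Its log2 fold change was -5.57 (SE 0.51, edgeR adjusted p = 8.5e-25), and DESeq2 called it too (adjusted p = 4.73e-07). The sums came from a part of the cells. At full depth Plac8 had a UMI in 42.6% of monocyte-like cells, and Hp and Ly6c2 in 27.7% each. In replicate 3 Hp and Ly6c2 each had UMIs in 1 of 4 monocyte-like cells.

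Ly6c2 stood at 295, 80.6 and 71.4 CPM in monocyte-like cells and at 0, 5.75 and 1.36 CPM in Ccr2 macrophages, again without overlap, with a log2 fold change of -4.87 (SE 0.46, edgeR adjusted p = 6.19e-23). Under DESeq2 its adjusted p was 0.248. Replicate 1 held the most Ly6c2 and Hp among the monocyte-like sums, and replicate 3 the most Plac8. Thbs1, which encodes the matrix protein thrombospondin-1, was at 847, 745 and 762 CPM in monocyte-like cells, the steadiest of these genes, and at 92.5, 179.9 and 13.6 CPM in Ccr2 macrophages. Its log2 fold change was -2.49 (SE 0.24, edgeR adjusted p = 2.52e-23; DESeq2 adjusted p = 2.21e-07). Slpi, a secreted inhibitor of leukocyte proteases and not on the monocyte list, had 81 UMIs in the monocyte-like cells of replicates 1 and 2 and 2 in the Ccr2 macrophages, although the latter sums held more RNA (edgeR adjusted p = 4.7e-22). Serpinb2, Mcemp1, Nod2, Ifi205 and Gsr were the other genes among the 12 with the largest falls, with 12 to 24 UMIs in the Ccr2 macrophages. Vcan, the proteoglycan versican, was lower in Ccr2 macrophages (log2 fold change -2.26, SE 0.40, edgeR adjusted p = 1.05e-06) but was called in only 4 of the 11 alternatives that tested it.

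Not all monocyte genes were called lower, although 0 of the 20 tested classical and 0 of the 4 tested non-classical ones had a positive log2 fold change. S100a10, an annexin partner, did not pass the test (log2 fold change -0.06, SE 0.19, edgeR adjusted p = 0.961), and of the 4 tested non-classical monocyte genes edgeR and DESeq2 called none, with none at an unadjusted p under 0.05 either. Lyz2, a lysozyme gene abundant in myeloid cells, was lower in Ccr2 macrophages by a small step, a log2 fold change of -0.70 (SE 0.16, edgeR adjusted p = 0.000508), which DESeq2 did not call (adjusted p = 0.529). Clec4e, the Mincle receptor for damaged cells and mycobacterial glycolipid, was at 655, 518 and 952 CPM in monocyte-like cells and 87.5, 307 and 122 CPM in Ccr2 macrophages (log2 fold change -1.62, SE 0.24, edgeR adjusted p = 2.42e-09). The groups did not overlap, and DESeq2 called Clec4e too (adjusted p = 0.0309).

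The other genes among the 12 with the largest rises were Stab1, Mmp12, Ccl17, Rhoc, Cd72, Pmp22 and Igfbp4. Pmp22, a membrane protein best known from myelin, was at 99.996, 112 and 94.9 CPM in Ccr2 macrophages and 8.56, 13.1 and 47.6 CPM in monocyte-like cells, and was called in all 12 alternatives that tested it.

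**Figure D2:**
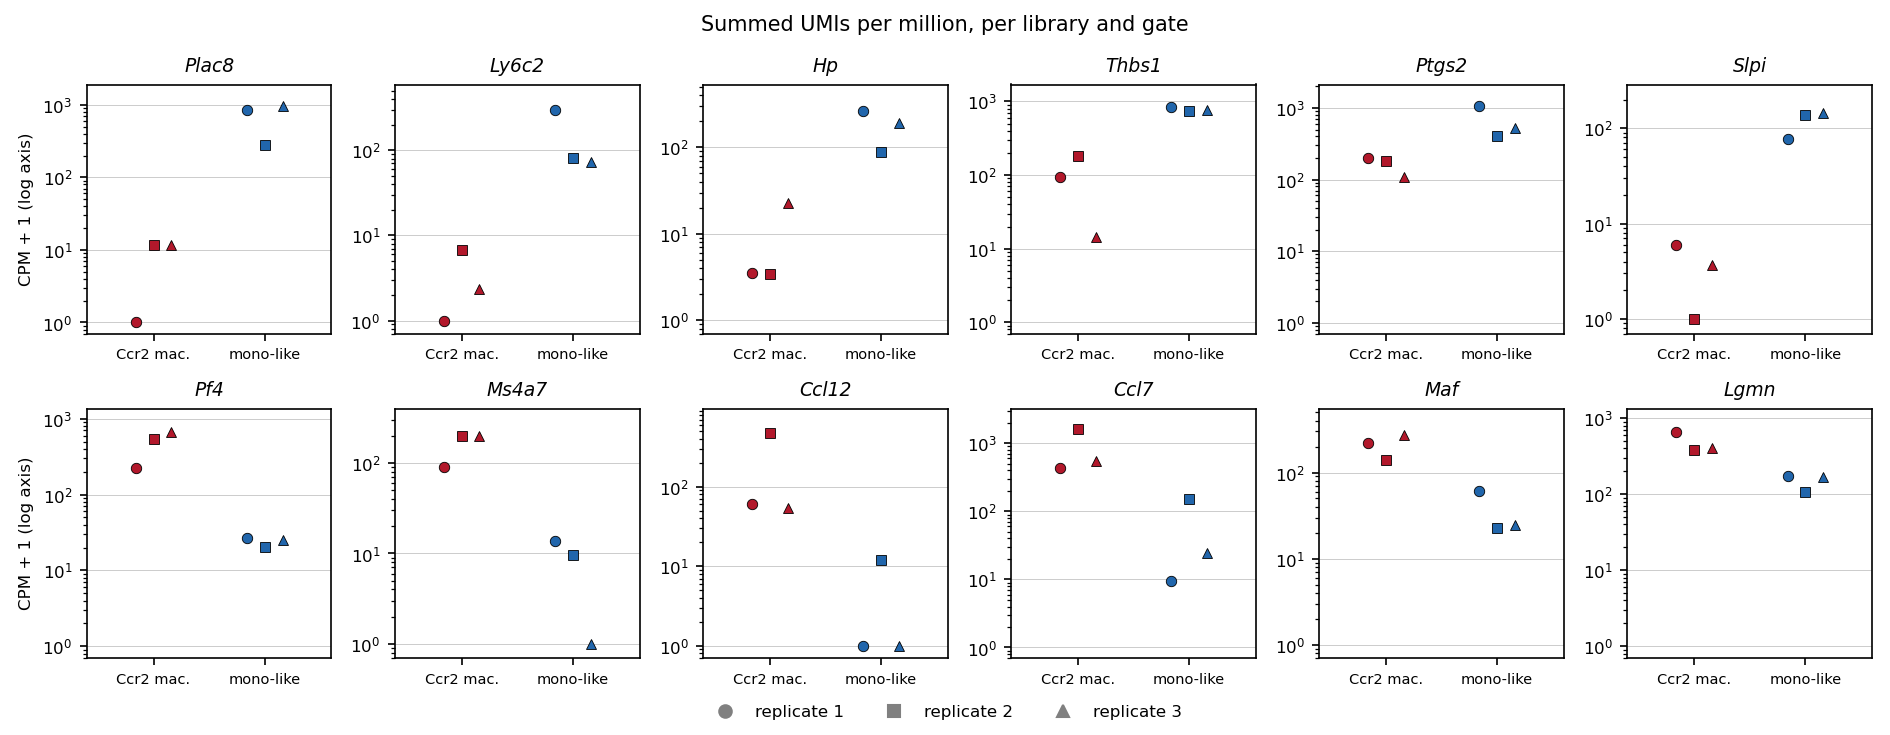
Level of 12 genes (CPM plus 1, log axis) in the summed Ccr2 macrophages (red) and monocyte-like cells (blue), 1 point per replicate by shape, with no averaging. In the upper row every monocyte-like point lies above every Ccr2 macrophage point, and in the lower row the order is reversed.

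Core macrophage genes moved the other way. Of 16 tested, 12 were higher in Ccr2 macrophages and none was lower, with a median log2 fold change of 1.36; DESeq2 called 3 of the 12 and the test with replicate 3 added called 7. Pf4, the chemokine platelet factor 4 that tissue macrophages also express, was at 222, 537 and 675 CPM in Ccr2 macrophages and at 25.7, 19.6 and 23.8 CPM in monocyte-like cells. The groups were far apart, with a log2 fold change of 4.20 (SE 0.35, edgeR adjusted p = 9.7e-31), and Pf4 was called in all 14 alternatives. Apoe, the apolipoprotein that carries lipid out of macrophages, was at 1742, 2766 and 2832 CPM against 578, 806 and 1571 CPM, a log2 fold change of 1.74 (SE 0.19, edgeR adjusted p = 2.02e-17), and was called in 13 of 14 alternatives. The 4 monocyte-like cells of replicate 3 had the highest Apoe of their side, still below every Ccr2 macrophage sum.

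Ms4a7, a membrane protein of the MS4A family that marks tissue macrophages, was at 90.0, 197 and 195 CPM in Ccr2 macrophages and 12.8, 8.71 and 0 CPM in monocyte-like cells (log2 fold change 3.93, SE 0.45, edgeR adjusted p = 1.1e-15). Its family member Ms4a4c, known from monocytes, was at 7.5, 32.0 and 29.8 CPM in Ccr2 macrophages and 269.5, 69.7 and 262 CPM in monocyte-like cells (log2 fold change -2.40, SE 0.36, edgeR adjusted p = 5.3e-09). Neither gene's groups overlapped. They lie 68.6 kb apart on chromosome 19 of GRCm38 and moved in opposite directions, although DESeq2 called only Ms4a7 (adjusted p = 0.000919). The 250 bases before the transcript starts given for them, and for the chemokine genes Ccl12 and Pf4, are shown because these 4 genes are among those with large differences. The window of Ms4a4c lies inside the wider annotated span of that gene, which begins at base 11404717 with other transcripts. They were taken from RefSeq on build GRCm38.p6 and read 5′ to 3′ on the strand of the gene, with capitals marking matches to the motifs searched. The windows are chr19:11336147-11336396 (minus strand) for Ms4a7, chr19:11407411-11407660 (plus) for Ms4a4c, chr11:82101595-82101844 (plus) for Ccl12 and chr5:90772185-90772434 (plus) for Pf4.
Ms4a7: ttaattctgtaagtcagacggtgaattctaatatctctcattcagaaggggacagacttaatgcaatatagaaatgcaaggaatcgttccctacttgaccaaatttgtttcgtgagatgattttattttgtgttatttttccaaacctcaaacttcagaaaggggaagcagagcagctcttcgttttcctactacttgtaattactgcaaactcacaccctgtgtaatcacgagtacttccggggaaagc
Ms4a4c: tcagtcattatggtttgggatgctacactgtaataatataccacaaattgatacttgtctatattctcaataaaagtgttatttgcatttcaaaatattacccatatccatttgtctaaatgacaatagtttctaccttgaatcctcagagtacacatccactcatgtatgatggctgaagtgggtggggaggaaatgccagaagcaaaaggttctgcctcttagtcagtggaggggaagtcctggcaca
Ccl12: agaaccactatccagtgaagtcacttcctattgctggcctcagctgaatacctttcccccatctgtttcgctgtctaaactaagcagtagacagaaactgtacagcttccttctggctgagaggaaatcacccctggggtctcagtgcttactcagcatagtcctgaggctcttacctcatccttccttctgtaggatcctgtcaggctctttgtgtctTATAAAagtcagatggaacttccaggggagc
Pf4: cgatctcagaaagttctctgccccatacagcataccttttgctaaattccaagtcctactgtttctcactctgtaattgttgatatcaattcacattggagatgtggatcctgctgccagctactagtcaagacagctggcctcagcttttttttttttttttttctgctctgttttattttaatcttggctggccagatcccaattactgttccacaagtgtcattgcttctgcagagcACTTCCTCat

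Motifs were searched on both strands unless said otherwise. The motif of AP-1, the factor formed by FOS and JUN proteins, was taken as TGACTCA, also in the variant with G in its middle, and was held by 4.43% of promoters. The half-site of MAF proteins was taken as TGCTGAC and was held by 3.72% of promoters. PU.1, a master regulator of myeloid cells, was searched as GAGGAAGT. The E-box, which basic helix-loop-helix factors bind, was taken as CACGTG and was held by 6.05% of promoters. An IRF motif was searched too, and 3.04% of promoters held it. The TATA box, where transcription initiation factors bind, was searched as TATAAA on the printed strand only. Ccl12 held TATAAA 31 bases before its start, as did 8.12% of 27025 promoters of the same length somewhere in the window. Pf4 held the PU.1 letters 10 bases before its start, read on the other strand, a match present in 2.44% of promoters. None of these letters was found in the windows of Ms4a7 and Ms4a4c, which says only that they are absent from those 250 bases.

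Adgre1, which encodes the macrophage antigen F4/80, was at 185, 228 and 183 CPM in Ccr2 macrophages and 51.3, 91.5 and 143 CPM in monocyte-like cells (log2 fold change 1.55, SE 0.29, edgeR adjusted p = 8.57e-06). Csf1r, the receptor for the growth factor on which macrophages depend, was at 490.0, 517 and 514 CPM against 239.6, 239.5 and 357 CPM, a smaller difference of 1.12 in log2 units (SE 0.23, edgeR adjusted p = 7.75e-05). DESeq2 called neither, with adjusted p of 0.156 and 0.189. Mertk, a receptor for dying cells, was at 25.0, 31.2 and 32.5 CPM in Ccr2 macrophages and 8.56, 2.18 and 47.6 CPM in monocyte-like cells; the last of these rests on the 4 cells of replicate 3, and only 3 UMIs lie behind the first pair. Cd14, the lipopolysaccharide co-receptor of both cell types, did not pass the test (log2 fold change -0.16, SE 0.18, edgeR adjusted p = 0.815).

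Among 20 tested transcription factors of myeloid cells, 7 were higher in Ccr2 macrophages and 1 was lower. Maf, a regulator of macrophage genes, was at 217, 138 and 274 CPM in Ccr2 macrophages and 59.9, 21.8 and 23.8 CPM in monocyte-like cells (log2 fold change 2.30, SE 0.34, edgeR adjusted p = 1.52e-09). The groups did not overlap, and DESeq2 called Maf too (adjusted p = 0.0146). Maf was not particular to macrophages. At full depth it had a UMI in 61.9% of Ccr2 macrophages, 29.8% of monocyte-like cells and 63.3% of lymphoid cells. Tcf4, Irf8, Klf2, Atf3 and Klf4 were also higher, and DESeq2 called none of these 5. Irf8, an interferon regulatory factor of monocytes and dendritic cells, had a log2 fold change of 1.21 (SE 0.35, edgeR adjusted p = 0.0137). The factor lower in Ccr2 macrophages was Tfec, a relative of the lysosome regulator TFEB, on 11 UMIs against 26. Irf4, a regulator of dendritic cells and alternative activation, did not pass the test (log2 fold change -0.45, SE 0.27, edgeR adjusted p = 0.493).

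**Figure D3:**
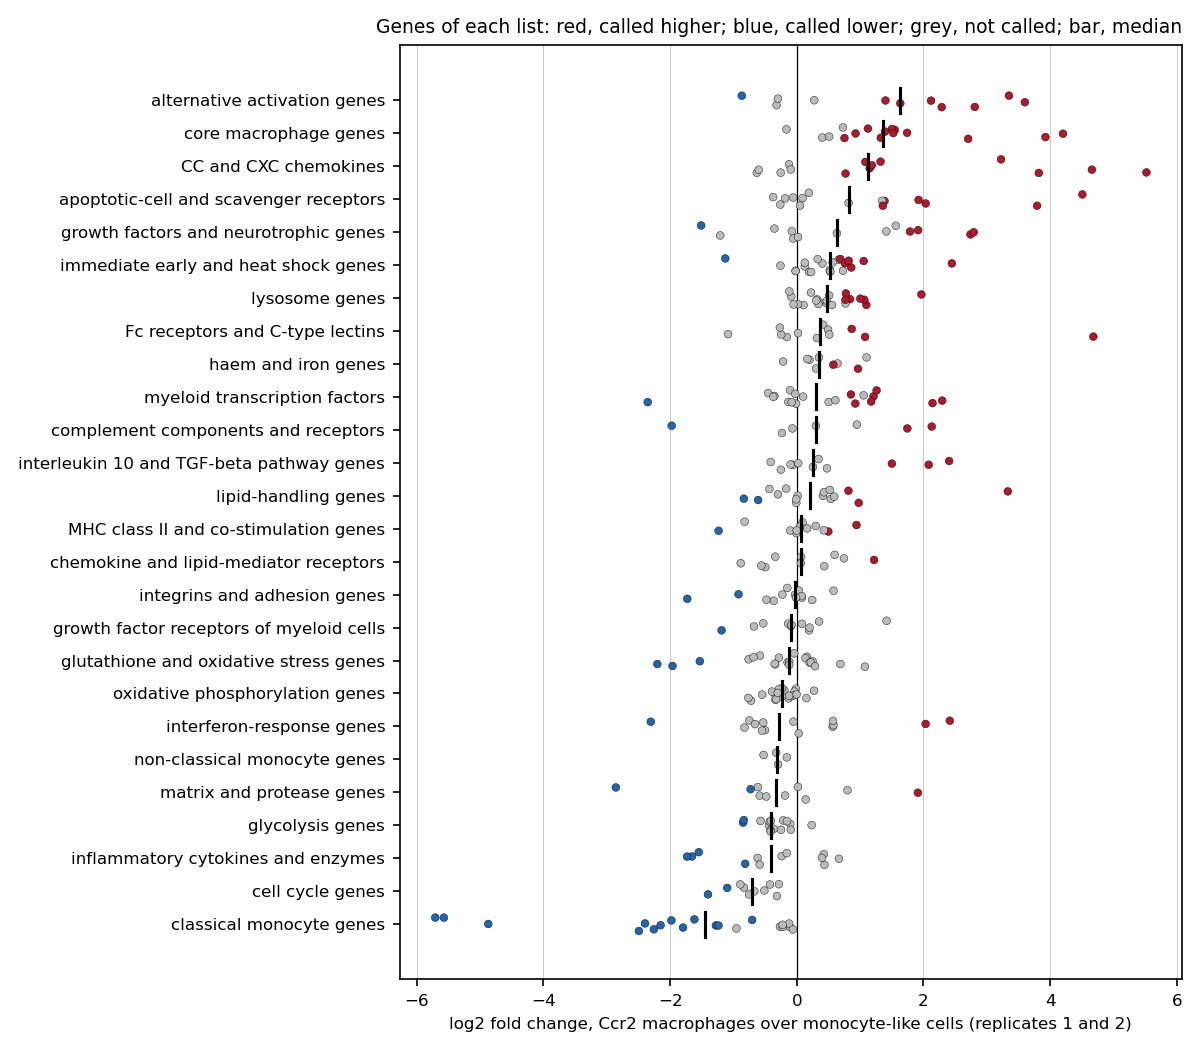
Log2 fold change between Ccr2 macrophages and monocyte-like cells (replicates 1 and 2) for each tested gene of 26 lists, with genes called higher in red, called lower in blue and not called in grey, and a bar at the median of each list. The medians run from -1.45 for classical monocyte genes to 1.63 for alternative activation genes, against -0.01 for all genes tested.

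Chemokines, the secreted proteins that draw other leukocytes into tissue, were in part higher in Ccr2 macrophages than in monocyte-like cells. Of 14 tested, 9 were higher and none was lower, with a median log2 fold change of 1.12; DESeq2 called 4 of the 9 and the test with replicate 3 added called 5. The monocyte-attracting chemokines Ccl2, Ccl7 and Ccl12 lie within 67.8 kb on chromosome 11. Ccl12 had 604 UMIs in the Ccr2 macrophages of replicates 1 and 2 and 5 in the monocyte-like cells, at 60.0, 476 and 52.9 CPM against 0, 10.9 and 0 CPM (log2 fold change 5.52, SE 0.47, edgeR adjusted p = 4.19e-29). Ccl7 was at 440.0, 1609 and 552 CPM against 8.56, 152 and 23.8 CPM (log2 fold change 3.82, SE 0.26, edgeR adjusted p = 5.66e-44). Ccl2, the main ligand of CCR2 and chosen after its values were seen, was at 1215, 2064 and 1075 CPM in Ccr2 macrophages and 81.3, 307 and 23.8 CPM in monocyte-like cells (log2 fold change 3.22, SE 0.22, edgeR adjusted p = 7.66e-44). Replicate 2 held the most of all 3 genes in both gates, and for none of them did the groups overlap. Ccl2 and Ccl12 were called in every alternative that tested them, and Ccl7 in 13 of 14.

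Ccl24, eotaxin-2, which attracts eosinophils, was at 167, 138 and 29.8 CPM in Ccr2 macrophages and 12.8, 2.18 and 0 CPM in monocyte-like cells, 235 UMIs against 4 in replicates 1 and 2 (log2 fold change 4.66, SE 0.49, edgeR adjusted p = 1.08e-18). It too was called in all 12 alternatives that tested it. Against Lyve1 macrophages all 4 of these chemokines were lower: Ccl2 was at 3415, 5095 and 1389 CPM there (log2 fold change -0.86, SE 0.21, edgeR adjusted p = 0.0087), and Ccl24 at 325, 305 and 313 CPM (log2 fold change -1.49, SE 0.33, edgeR adjusted p = 0.00452). Ccl24 was on the list of Lyve1 macrophage markers too. The inflammatory chemokines of neutrophils and monocytes differed by less. Cxcl2 was at 6027, 8842 and 9029.6 CPM in Ccr2 macrophages and 4946, 2598 and 95.2 CPM in monocyte-like cells (log2 fold change 1.08, SE 0.17, edgeR adjusted p = 1.81e-08), and Ccl4 was at 3929.8, 6451 and 6215 CPM against 3448, 1616 and 71.4 CPM. Both fell short under DESeq2 (adjusted p = 0.156 for Cxcl2). In replicate 3 these levels were very low in the 4 monocyte-like cells. Cxcl10, an interferon-induced T cell attractant, did not pass the test (log2 fold change -0.09, SE 0.20, edgeR adjusted p = 0.931). Its log2 fold change was positive in 9 of 14 alternatives, and with stricter gates, at 1.81, it was called (edgeR adjusted p = 0.00122).

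Inflammatory cytokines and enzymes were not raised with the chemokines. Of 12 tested, 4 were lower in Ccr2 macrophages and none was higher, with a median log2 fold change of -0.41. Ptgs2, the inducible cyclooxygenase that starts prostaglandin synthesis, was at 197, 179 and 108 CPM in Ccr2 macrophages and 1065, 409 and 524 CPM in monocyte-like cells (log2 fold change -1.73, SE 0.23, edgeR adjusted p = 1.05e-11; DESeq2 adjusted p = 0.00285). All monocyte-like sums were above all Ccr2 macrophage sums. Il6 was at 120.0, 90.4 and 71.8 CPM against 612, 196 and 47.6 CPM, so that the order held in replicates 1 and 2 and not in replicate 3 (log2 fold change -1.65, SE 0.25, edgeR adjusted p = 9.09e-09). With replicate 3 added its adjusted p was 0.107. Il1b was at 1195, 3595 and 1235 CPM against 3431, 4257 and 3856 CPM, with overlap across replicates and a smaller step in replicate 2 than in replicate 1 (log2 fold change -0.81, SE 0.17, edgeR adjusted p = 0.000147), and DESeq2 did not call it (adjusted p = 0.591). The fourth was Osm, oncostatin M, which was at 269.5 CPM in the monocyte-like cells of replicate 1 and close to Ccr2 macrophages in replicate 2 (34.8 against 34.5 CPM); its call rested on replicate 1. Without replicate 1 and with replicate 3 added, its log2 fold change was 0.05.

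Il10, the main anti-inflammatory cytokine of intestinal macrophages, was higher in Ccr2 macrophages. It was at 70.0, 329 and 263 CPM against 12.8, 63.2 and 0 CPM in monocyte-like cells (log2 fold change 2.41, SE 0.34, edgeR adjusted p = 4.08e-10), and DESeq2 called it (adjusted p = 0.0116). Replicate 1 was lower than replicate 2 in both gates, and the groups did not overlap. Of the 11 tested genes of the interleukin 10 and TGF-beta pathways, the others called were the TGF-beta receptors Tgfbr2 (log2 fold change 2.08, SE 0.47, edgeR adjusted p = 0.000378) and Tgfbr1 (1.5, SE 0.45, edgeR adjusted p = 0.0202), both higher. Tgfbr2 was called with replicate 3 added (adjusted p = 0.0291) and Tgfbr1 was not (adjusted p = 0.102).

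Genes of alternative activation, the programme macrophages show under type 2 cytokines, had the highest list median, 1.63. Of 11 tested, 7 were higher and 1 was lower; DESeq2 called 3. Retnla, a secreted protein induced by interleukins 4 and 13, was at 10742, 9945 and 7367 CPM in Ccr2 macrophages and 4098, 2922 and 3761 CPM in monocyte-like cells (log2 fold change 1.63, SE 0.17, edgeR adjusted p = 2.96e-20). It was abundant on both sides and did not overlap, and it was called in 13 of 14 alternatives. Mmp12, the macrophage elastase, was at 1192, 124 and 81.3 CPM against 111, 8.71 and 0 CPM (log2 fold change 3.60, SE 0.31, edgeR adjusted p = 6.95e-29). Monocyte-like cells of replicate 1 held as much Mmp12 as Ccr2 macrophages of the other replicates, so the groups overlapped across replicates and differed within each. Ccl17 and Ccl22, ligands of CCR4 on T cells, were also higher, on 209 UMIs against 9 and 131 against 8. In replicate 3 they fell to 5.42 and 9.49 CPM in Ccr2 macrophages, and Ccl22 is at the same time a marker of migratory dendritic cells. The 7 markers of these cells, Ccl22 among them, summed to 75.0, 119 and 20.3 CPM in Ccr2 macrophages. In monocyte-like cells they summed to 25.7, 37.0 and 23.8 CPM. Ccr7, a dendritic cell gene outside that list, was at 2.50, 6.57 and 0 CPM in Ccr2 macrophages and 0, 146 and 0 CPM in monocyte-like cells. Ahr, the aryl hydrocarbon receptor, was lower (log2 fold change -0.87, SE 0.28, edgeR adjusted p = 0.036) and was called in 1 of 13 alternatives.

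Receptors for dying cells and their bridging proteins were in part higher. Of 15 tested, 6 were higher and none lower, with a median log2 fold change of 0.82. Axl, a TAM receptor tyrosine kinase, was at 240.0, 199 and 199 CPM in Ccr2 macrophages and 51.3, 63.2 and 95.2 CPM in monocyte-like cells, without overlap (log2 fold change 1.92, SE 0.30, edgeR adjusted p = 1.82e-08; DESeq2 adjusted p = 0.0284). Its ligand Gas6 was at 45.0, 32.0 and 52.9 CPM against 4.28, 0 and 0 CPM, and the scavenger receptor Stab1 was at 55.0, 64.9 and 82.7 CPM against 4.28, 4.36 and 0 CPM. Behind these monocyte-like values lie 1 UMI of Gas6 and 3 of Stab1, so no fold is given. Both were called (edgeR adjusted p = 2.72e-05 for Gas6 and 1.76e-07 for Stab1), and Stab1 was called in 10 of the 11 alternatives that tested it. Trem2, a lipid sensor, was at 85.0, 196 and 153 CPM against 55.6, 24.0 and 23.8 CPM, closer in replicate 1 than in replicate 2 (log2 fold change 2.04, SE 0.35, edgeR adjusted p = 7.77e-07; DESeq2 adjusted p = 0.272).

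The receptors for complement fragments C5ar1 and C3ar1 were higher in Ccr2 macrophages than in monocyte-like cells, while the complement component C3 was lower. C5ar1 was at 190.0, 283 and 304 CPM in Ccr2 macrophages and 59.9, 84.9 and 95.2 CPM in monocyte-like cells (log2 fold change 1.75, SE 0.29, edgeR adjusted p = 1.63e-07). C3ar1 was at 199.99, 232 and 271 CPM against 29.9, 67.5 and 47.6 CPM (log2 fold change 2.13, SE 0.31, edgeR adjusted p = 9.42e-10). C3, the central complement protein, was at 67.5, 19.7 and 21.7 CPM against 248, 91.5 and 309 CPM (log2 fold change -1.97, SE 0.33, edgeR adjusted p = 1.29e-07). Within each of the 3 genes the groups did not overlap, and all 3 were also called by DESeq2, with adjusted p of 0.0488, 0.0119 and 0.0469. They were the called members among 7 tested complement genes outside the gate. Against Lyve1 macrophages C5ar1 and C3ar1 were called lower in Ccr2 macrophages, and against Cx3cr1 macrophages C3ar1 was called lower.

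Of 22 tested lysosome genes, 7 were higher in Ccr2 macrophages and none was lower, with a median log2 fold change of 0.47. Lgmn, the protease legumain, was at 662, 385 and 408 CPM against 171, 105 and 167 CPM (log2 fold change 1.97, SE 0.25, edgeR adjusted p = 6.64e-13; DESeq2 adjusted p = 0.000347). Ctsb, cathepsin B, was at 1835, 1364 and 1214 CPM against 1147, 514 and 666 CPM (log2 fold change 1.10, SE 0.19, edgeR adjusted p = 8.05e-07). Neither gene overlapped between the groups, and Lgmn was the only one of the 7 that DESeq2 called. Hmox1, which degrades haem, was higher (log2 fold change 0.97, SE 0.24, edgeR adjusted p = 0.00201) with 1 other of 9 tested haem and iron genes, the ferritin heavy chain Fth1; neither was called with replicate 3 added, at adjusted p of 0.101 for Hmox1 and 0.206 for Fth1. Selenop, the plasma selenoprotein that macrophages also secrete, was on none of the lists and was chosen here after its values were seen, because all 14 alternatives called it. It was at 497, 579 and 728 CPM in Ccr2 macrophages and 163, 126 and 71.4 CPM in monocyte-like cells (log2 fold change 1.98, SE 0.25, edgeR adjusted p = 3.96e-13).

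Most antigen presentation genes did not pass the test. Of 12 tested MHC class II and co-stimulation genes, 2 were higher, 1 was lower and 9 did not pass, with a median log2 fold change of 0.07. H2-Ab1 was at 6575, 6310.1 and 6514 CPM in Ccr2 macrophages and 5660.0, 6291 and 4308 CPM in monocyte-like cells, a log2 fold change of 0.16 (SE 0.16, edgeR adjusted p = 0.776). The sums of replicate 2 were nearly level. H2-Eb1, another class II chain, was higher by 0.50 in log2 units (SE 0.16, edgeR adjusted p = 0.043), and Ciita, the switch of class II transcription, by 0.94 (SE 0.31, edgeR adjusted p = 0.0387); they were called in 4 of 14 and 1 of 12 alternatives. The co-stimulatory ligand Cd80 was at 75.0, 115 and 50.1 CPM against 317, 185 and 119 CPM and was lower (log2 fold change -1.23, SE 0.27, edgeR adjusted p = 0.000192). DESeq2 called none of these 3. The dendritic cell lectin Cd209a was lower too (log2 fold change -1.23, SE 0.24, edgeR adjusted p = 1.67e-05), but with stricter gates it was at 0.20, and 19 monocyte-like cells carried dendritic cell UMIs.

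Of 13 tested growth factors that act on neighbouring tissue, 4 were higher and 1 was lower, with a median log2 fold change of 0.63. Kitl, the stem cell factor on which mast cells and interstitial cells of Cajal depend, was at 67.5, 69.0 and 73.2 CPM in Ccr2 macrophages and 4.28, 13.1 and 0 CPM in monocyte-like cells (log2 fold change 2.79, SE 0.52, edgeR adjusted p = 4.74e-06). Pdgfb, a growth factor of pericytes and fibroblasts, was at 202, 74.7 and 108 CPM against 42.8, 6.53 and 23.8 CPM (log2 fold change 2.74, SE 0.41, edgeR adjusted p = 2.63e-09; DESeq2 adjusted p = 0.0125). Neither overlapped between groups, and Kitl varied least among the Ccr2 macrophage sums. Igf1, the insulin-like growth factor, was at 215, 32.0 and 28.5 CPM against 81.3, 2.18 and 0 CPM: replicate 1 was the highest in both gates and the groups overlapped across replicates (log2 fold change 1.92, SE 0.41, edgeR adjusted p = 0.000144). With replicate 3 added its adjusted p was 0.0567. Wnt11, a secreted WNT ligand, was lower (log2 fold change -1.51, SE 0.37, edgeR adjusted p = 0.00187), and this call was lost with replicate 3 added (adjusted p = 0.112).

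None of 23 tested oxidative phosphorylation genes was called by edgeR or DESeq2, with 3 at an unadjusted p under 0.05 and a median log2 fold change of -0.23. Of 15 glycolysis genes only Pgk1 and Slc16a3 were, both lower in Ccr2 macrophages. Pgk1, a glycolytic kinase, was at 145, 137 and 93.5 CPM against 312, 226 and 214 CPM (log2 fold change -0.85, SE 0.25, edgeR adjusted p = 0.0182), and neither it nor Slc16a3 was called by DESeq2. Of 21 tested genes of glutathione and oxidative stress, 3 were lower and none was higher. Prdx5, a peroxiredoxin, was at 82.5, 214 and 217 CPM in Ccr2 macrophages and 342, 509.6 and 952 CPM in monocyte-like cells, without overlap (log2 fold change -1.53, SE 0.25, edgeR adjusted p = 4.89e-08; DESeq2 adjusted p = 0.0244). The others were Gsr, glutathione reductase, and Slc7a11, the cystine importer. Slc7a11 had an adjusted p of 0.098 with replicate 3 added.

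Interferon-response genes were split. Of 14 tested, Ifit1 and Rsad2 were higher, Ifi205 was lower, and the median log2 fold change was -0.28. Ifit1, an antiviral RNA-binding protein, was at 149.99, 117 and 78.6 CPM in Ccr2 macrophages and 29.9, 21.8 and 0 CPM in monocyte-like cells (log2 fold change 2.42, SE 0.38, edgeR adjusted p = 2.03e-08), and was called in all 12 alternatives that tested it. Of 10 tested cell cycle genes, Top2a and Stmn1 were lower; Mki67, the proliferation antigen, did not pass (log2 fold change -0.83, SE 0.37, edgeR adjusted p = 0.214). With stricter gates Top2a and Stmn1 turned to 0.78 and 0.26, neither called. Immediate early and heat shock genes, which enzymatic digestion can induce, had 6 of 22 higher and 1 lower in Ccr2 macrophages. Egr1 was at 510.0, 94.5 and 117 CPM against 107, 15.2 and 0 CPM (log2 fold change 2.45, SE 0.31, edgeR adjusted p = 1.53e-12), and Hspa1b, a heat shock protein, at 3615, 3477 and 6826 CPM against 1138, 2676 and 1238 CPM. For Egr1 and Igf1 replicate 1 was the highest in both gates. The part of digestion in these values was not tested.

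The remaining lists are given by their counts, beside the 5.67% of all genes that were called. Of 12 Fc receptors and C-type lectins, Fcgr4, Clec12a and Mgl2 were higher; Fcgr4, a receptor for IgG, rested on 64 UMIs against 1. Of 10 tested receptors for chemokines and lipid mediators outside the gate, only P2ry6, a receptor for UDP released by damaged cells, was called (log2 fold change 1.22, SE 0.34, edgeR adjusted p = 0.00927). P2ry6 was called in 3 of 13 alternatives, and in replicate 3 it was at 131 CPM in Ccr2 macrophages and 143 CPM in monocyte-like cells. Lipid-handling genes had Hpgds, Abca1 and Pltp higher and 2 lower, Lgals3 among them, of 16 tested; the call of Abca1 came from replicate 2, since replicate 1 was at 132 CPM in Ccr2 macrophages and 145 CPM in monocyte-like cells. Of 13 integrins and adhesion genes, Itgal and Cd24a were lower. Of 10 matrix and protease genes, Timp2, a metalloprotease inhibitor, was higher (log2 fold change 1.91, SE 0.29, edgeR adjusted p = 9.4e-09) and Serpinb2 and Plaur, of the plasminogen system, were lower. Of 11 growth factor receptors only Csf2rb, a chain shared by the receptors for GM-CSF, interleukin 3 and interleukin 5, was called, at 85.0, 108 and 48.8 CPM in Ccr2 macrophages and a steady 227, 233 and 238 CPM in monocyte-like cells (log2 fold change -1.19, SE 0.27, edgeR adjusted p = 0.000433).

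The gate for Ccr2 macrophages set no limit on Chil3, F10, Ifitm6 or Fn1. Of its 189 cells, 30 also met the Chil3, F10, Ifitm6 and Fn1 limits of the monocyte gate, 11, 13 and 6 in replicates 1, 2 and 3. This split was made after the data had been seen, uses gate genes, and is given as a description with no test. The 30 cells were deeper, with medians of 16959, 15143 and 15469.5 UMIs against 7396.5, 12992 and 9430 in the other 159, and depth by itself makes UMIs of any gene more likely to be found. Pf4 was at 39.0, 93.9 and 76.3 CPM in the 30 cells and at 372, 631 and 774 CPM in the other Ccr2 macrophages. Ms4a7 was at 11.1, 0 and 19.1 CPM against 154, 239 and 224 CPM. The 30 cells overlapped with monocyte-like cells in Ms4a7 and lay between them and the other Ccr2 macrophages in Pf4, in each replicate.

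Maf was at 94.6, 51.6 and 76.3 CPM in the 30 cells and 318, 156 and 306 CPM in the rest, again without overlap. Apoe was at 1314, 563 and 810.4 CPM against 2092, 3233 and 3167 CPM. Plac8 was at 0, 9.39 and 76.3 CPM in the 30 cells, below monocyte-like cells in each replicate, and at 0, 11 and 0 CPM in the rest. Retnla was at 17979, 10874 and 19269 CPM in the 30 cells, against 4842, 9748 and 5395 CPM in the other Ccr2 macrophages and 4098, 2922 and 3761 CPM in monocyte-like cells, so it was highest in the 30 cells in every replicate. Ccl24 was at 289, 605 and 19.1 CPM in the 30 cells and 68.1, 38.8 and 31.6 CPM in the rest, so that in replicates 1 and 2 its level was higher in the 30 cells. Ear2, an eosinophil-type ribonuclease, was at 924, 784 and 582 CPM against 354, 292 and 207 CPM. Cd209a, at 5.57, 18.8 and 0 CPM in the 30 cells and 345, 175 and 94.8 CPM in the rest, was lower in the 30 cells in each replicate.

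**Figure D4:**
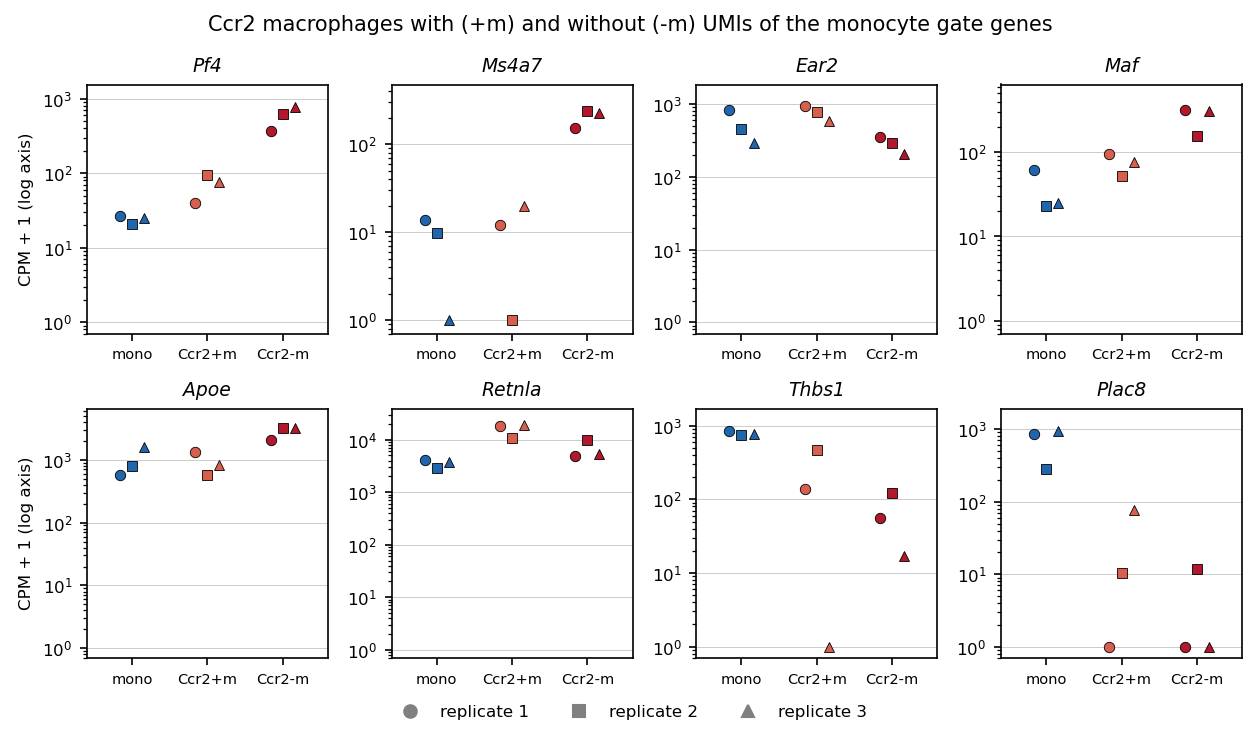
Level of 8 genes (CPM plus 1, log axis) in monocyte-like cells (blue), in the 30 Ccr2 macrophages that also met the Chil3, F10, Ifitm6 and Fn1 limits (light red, +m) and in the other 159 (dark red, -m), 1 point per replicate. Pf4 and Ms4a7 are low in the first 2 groups, Plac8 is highest in monocyte-like cells, and Retnla is highest in the middle group.

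To place Ccr2 macrophages beside other macrophages of the same libraries, they were set against 137 Cx3cr1 macrophages (at least 10 C1q and 2 Cx3cr1 UMIs, at most 1 of Ccr2, none of Lyve1 or Timd4) and 654 Lyve1 macrophages (at least 10 C1q and 2 Lyve1 UMIs, at most 1 of Ccr2). All 3 replicates entered these tests. They use the same Ccr2 macrophage sums as the comparison with monocyte-like cells, so the results share those samples. Against Cx3cr1 macrophages 586 of 5754 genes were called (10.2%), 263 higher (4.57%) and 323 lower (5.61%). Against Lyve1 macrophages 2106 of 7557 were called (27.9%), 1068 higher (14.1%) and 1038 lower (13.7%). These comparisons and that with monocyte-like cells differ in libraries, cells and UMIs, so their shares of called genes do not rank likeness. In data simulated at these library sizes, with the same spread for every gene, 5.21% of 2-fold changes were called against monocyte-like cells. The share was 41.1% against Cx3cr1 and 66.3% against Lyve1 macrophages. Whether these shares hold for real genes, whose spread may differ from gene to gene, was not tested. A gene that did not pass may still differ. Markers of other cells moved with the comparison with Lyve1 macrophages: all 5 tested smooth muscle markers were lower in Ccr2 macrophages, as were Dcn and Mgp of 3 fibroblast markers and both tested gastric epithelial markers, Tff1 and Pgc. Acta2, smooth muscle actin, was at 2.50, 1.64 and 6.78 CPM in Ccr2 and 37.8, 38.2 and 49.5 CPM in Lyve1 macrophages. The part of RNA from these cells was not tested.

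The core macrophage genes that Ccr2 macrophages held above monocyte-like cells were in turn lower than in the other macrophages. Of 19 tested, 16 were lower and none higher than in Cx3cr1 macrophages, and 12 were lower and 2 higher than in Lyve1 macrophages. Maf, at 217, 138 and 274 CPM in Ccr2 macrophages, was at 1206, 472 and 912 CPM in Cx3cr1 macrophages (log2 fold change -1.96, SE 0.19, edgeR adjusted p = 2.54e-05). In Lyve1 macrophages it was at 1919.7, 1479 and 2165 CPM (log2 fold change -2.99, SE 0.19, edgeR adjusted p = 1.57e-07). The order was thus monocyte-like, Ccr2, Cx3cr1 and Lyve1 macrophages in each replicate, with the step between the last 2 not tested. Stab1 gave the same order, at 415, 347 and 481 CPM in Cx3cr1 and 665, 794 and 1050.0 CPM in Lyve1 macrophages. Gas6 rose further, to 236, 183 and 231 CPM and then 1115, 825 and 995 CPM, against 45.0, 32.0 and 52.9 CPM in Ccr2 macrophages. Both were lower in Ccr2 macrophages than in each of the others (edgeR adjusted p of 3.71e-06 and 6.77e-08 for Stab1, and 1.85e-05 and 1.77e-08 for Gas6).

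Ms4a7 did not follow that order. It was at 766, 587 and 901 CPM in Cx3cr1 macrophages and 276, 467 and 463 CPM in Lyve1 macrophages, both above Ccr2 macrophages (log2 fold changes of -2.20 and -1.14, edgeR adjusted p = 5.03e-05 and 0.000266). Apoe was at 17750.5, 9335 and 18845 CPM in Cx3cr1 macrophages, far above the 1742, 2766 and 2832 CPM of Ccr2 macrophages (log2 fold change -2.59, SE 0.23, edgeR adjusted p = 1.48e-05).

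Retnla had the largest fold over Cx3cr1 macrophages of the genes named here with UMIs in every sum. It was at 10742, 9945 and 7367 CPM against 287, 44.6 and 25.5 CPM, a log2 fold change of 6.97 (SE 0.44, edgeR adjusted p = 9.96e-07), and it was above Lyve1 macrophages too, by 0.93 (SE 0.16, edgeR adjusted p = 0.000775). Fgfr1, a fibroblast growth factor receptor, was at 157, 94.5 and 74.5 CPM in Ccr2 macrophages with no UMI in any Cx3cr1 macrophage sum, and so at least 41.2-fold higher against a floor of 3 UMIs over the 3 sums. Cd226, an adhesion receptor of lymphocytes, was also without a UMI there and at least 31.3-fold higher. Ltb4r1, the leukotriene B4 receptor, Cd209a and the adhesion molecule Cd2 were the other genes named by size of change, all with no more than 4 UMIs in the Cx3cr1 macrophages. Lower than in Cx3cr1 macrophages were Cp (ceruloplasmin), Tmem119, Pmepa1, Npl, Cmah and Vcam1. Vcam1, the vascular adhesion molecule, was at 7.5, 23.8 and 19.0 CPM against 204, 183 and 121 CPM (log2 fold change -3.13, SE 0.30, edgeR adjusted p = 2.19e-05). Tmem119, a membrane protein best known from microglia, was at 7.5, 5.75 and 6.78 CPM against 128, 77.5 and 44.9 CPM (log2 fold change -3.49, SE 0.37, edgeR adjusted p = 5.23e-05).

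MHC class II genes were higher in Ccr2 than in Lyve1 macrophages. Of 12 tested class II and co-stimulation genes, 9 were higher than in Lyve1 macrophages, with a median log2 fold change of 2.67 against -0.04 over all genes tested, and 3 were higher than in Cx3cr1 macrophages. H2-Ab1 was at 1348, 1015 and 925 CPM in Lyve1 macrophages against 6575, 6310.1 and 6514 CPM (log2 fold change 2.78, SE 0.18, edgeR adjusted p = 2.15e-07). Against Cx3cr1 macrophages its log2 fold change was 0.18 (SE 0.16, edgeR adjusted p = 0.577). Lpl, lipoprotein lipase, was at 1672, 333 and 228 CPM in Ccr2 and 29.0, 7.88 and 7.17 CPM in Lyve1 macrophages (log2 fold change 5.56, SE 0.23, edgeR adjusted p = 1.14e-08), and Ear2 was at 610.0, 378 and 260.2 CPM against 2.90, 1.18 and 3.02 CPM. Lyz1, a second lysozyme gene, shares near-identical sequence with Lyz2, and how reads that match both were treated is not given in the sources used here. Vsig4, a complement receptor of resident macrophages, and Cyr61, a matrix-associated signalling protein, had no UMI in Ccr2 macrophages and were at least 46.7-fold and 35.1-fold lower. Fcna, Cd209f, Cd38 and Ccl8 were nearly absent as well, with 10, 6, 2 and 11 UMIs in all Ccr2 macrophages. Ltb4r1, H2-DMb2 (a class II chaperone) and Il7r were higher than in Lyve1 macrophages, on 168, 106 and 141 UMIs against 1, 4 and 2. Il7r, the interleukin 7 receptor, is also a marker of type 2 innate lymphoid cells, as is Il1rl1, which was higher too (log2 fold change 1.40, SE 0.25, edgeR adjusted p = 0.000969), while Rora of the same 3 tested markers was lower. All 12 genes named by size of change in each of these comparisons kept their call in the 7 alternatives.

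**Figure D5:**
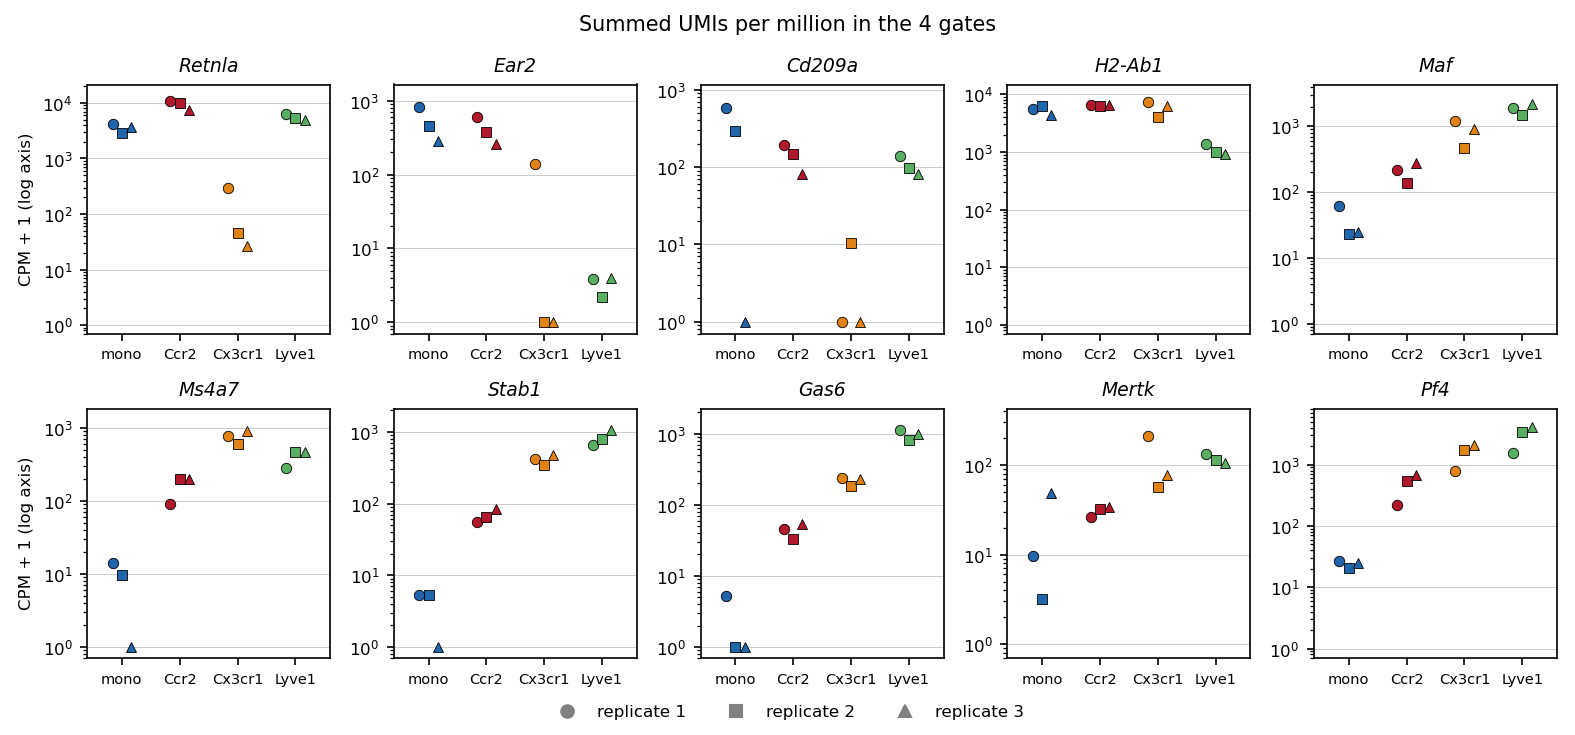
Level of 10 genes (CPM plus 1, log axis) in monocyte-like cells (blue), Ccr2 (red), Cx3cr1 (orange) and Lyve1 (green) macrophages, 1 point per replicate. Maf, Stab1 and Gas6 step up from left to right, Retnla is lowest in Cx3cr1 macrophages, and H2-Ab1 is low only in Lyve1 macrophages.

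Mertk, the receptor for dying cells, was ordered differently in replicate 3. In replicates 1 and 2 it stepped from 8.56 and 2.18 CPM in monocyte-like cells to 25.0 and 31.2 in Ccr2, and 211 and 56.3 in Cx3cr1 macrophages. In replicate 3 the monocyte-like value, 47.6 CPM, was above the 32.5 CPM of Ccr2 macrophages and below the 76.4 CPM of Cx3cr1 macrophages.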

How the data were processed

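Cells were sorted for CD45 from stomach muscle layer and captured with the Chromium Single Cell 3' v3 kit. The deposited count matrices hold whole UMI counts, which the authors made with Cell Ranger 3.1 on mm10 per the submitters' processing notes (software versions 3.0.0 for replicate 1 and 3.1.0 for the others per the file headers). The 3 matrices held 881, 2839 and 2015 barcodes and 31053 genes, and no barcode had fewer than 500 UMIs. No doublet caller was run, free RNA was not removed and no clustering was done.

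Counts were summed per library and gate and tested with edgeR 4.0.16 (quasi-likelihood, TMM, filterByExpr, library as a block, Benjamini-Hochberg adjustment) in R 4.3.3. Gates in the same library share its cells' handling, which is where the pairing comes from. A library entered a comparison with at least 10 barcodes in each gate, so replicate 3 did not enter that with monocyte-like cells. The 15 gate genes and mitochondrial genes were fitted and are not reported as results. Alternatives used DESeq2 1.42.0, limma 3.58.1, RLE scaling, no filter, no block, thinning to 2000 UMIs, stricter gates and left-out barcodes or libraries, some chosen after seeing the data. A gene was lost from an alternative when it failed that filter. Intervals were not computed for sums, whose UMIs limit the precision.

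The 26 pathway lists, 15 lists of other cells' markers, gates and members were chosen with earlier results of these data known. Named genes were the 12 largest called changes in each direction at 50 CPM or more, up to 3 per list and direction, fixed label markers, and 6 each way against the other macrophages. Lymphoid cells were 529 barcodes with at least 3 UMIs of Il7r, Gata3, Cd3e, Cd3d, Cd3g and Rora together, none of Chil3, F10 or Ifitm6 and at most 5 of the C1q genes. Sequences are from RefSeq. The analysis scripts were tested on simulated data. Some genes are not reported here.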

Additional observations from a re-analysis of the deposited data

How the results depend on the processing

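Against monocyte-like cells 181 genes were called higher and 106 lower. Without the library block (pairing) the counts were 21 and 7, with DESeq2 29 and 10, thinned to 2000 UMIs 22 and 12, with stricter gates 75 and 40, with at most 8% mitochondrial UMIs 50 and 26, without barcodes with lymphoid or mast cell UMIs 11 and 2, without those with dendritic cell UMIs 28 and 27, and with each barcode weighted equally (limma) 43 and 19. With replicate 3 added, chosen after seeing the data, they were 73 and 35, without replicate 1 103 and 40, and without replicate 2 75 and 41. RLE scaling, no filter and leaving out shared barcodes stayed within 1.5 times. Of the 287 genes, 96 were called in at least 50% of the alternatives that tested them and 9 in every one that did, 3 of which (Selenop, Ccl2 and Pf4) were tested in all 14. The cause of the falls was not tested. Leaving out replicate 1 or 2 alone left no residual degrees of freedom, so those settings gave fold changes and no counts.

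Of the named genes that were called, or called under the alternative, log2 fold changes that reversed were Abca1 at -0.020 without replicate 2 (2.09 without replicate 1), Ahr at 0.13 without lymphoid or mast cell UMIs, Cd209a at 0.20, Cxcl10 at 1.81, Stmn1 at 0.26 and Top2a at 0.78 with stricter gates, and Osm at 0.049 and Stmn1 at 0.27 without replicate 1 and with replicate 3 added. Named genes that were not called changed sign too, Cxcl10 in 9 of 14 alternatives. The cause was not tested.

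Against Cx3cr1 macrophages (263 higher, 323 lower) the counts were 121 and 169 without the block, 117 and 157 with DESeq2, and 469 higher without a filter; leaving out each replicate gave 182 to 285 higher and 252 to 328 lower. Against Lyve1 macrophages (1068 and 1038) they were 546 and 675 without the block and 686 and 540 with DESeq2; leaving out replicate 2 gave 625 and 601, and leaving out replicate 1 gave 1507 and 1305.

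The 47 monocyte-like cells, 4 of them in replicate 3, limit the depth: 42011 UMIs in that replicate make 1 UMI worth 23.8 CPM.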
